A study of Mus musculus with 28 samples.

Results

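Collagens that do not form the thick banded fibrils were followed here in O9-1 cells, a mouse cell line of cranial neural crest, the embryonic population that builds much of the face and palate. The 10 genes were taken by name from the 54429 identifiers of the count table: the collagen VI chains Col6a1, Col6a2 and Col6a3, the short-chain network collagen Col8a1, the fibril-associated (FACIT) collagens Col12a1, Col14a1 and Col16a1, the transmembrane collagens Col13a1 and Col23a1, and Col18a1, a multiplexin of basement membranes. RNA was sequenced from 28 libraries in 8 groups. At each of 21% O2 (normoxic, 4 libraries a group) and 0.5% O2 (hypoxic, 3 libraries a group), cells were either kept proliferating in medium conditioned by STO cells with 15% serum, 25 ng/ml bFGF and 5 ng/ml LIF, or taken towards a derivative. Chondrocyte cultures had 3 days of osteoblast medium and then 7 days as micromasses on matrigel in medium with 5% serum, insulin-transferrin-selenium, 0.1 µM dexamethasone, 10 ng/ml TGF-beta3 and 50 ng/ml BMP-2. Osteoblast cultures had 10 days in medium with 10% serum, 10 mM beta-glycerophosphate, 0.1 µM dexamethasone and 100 ng/ml BMP-2, and smooth muscle cultures had 3 days in medium with 10% serum and no added factor. All groups come from this 1 line, and a derivative is compared with proliferating cells that differ from it in medium and, where given, in days of culture.

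These collagens shape the matrix around and between fibrils. Collagen VI chains join as heterotrimers that assemble into beaded microfibrils close to the cell surface, and in cartilage they form the pericellular coat of the chondrocyte. FACIT collagens sit on the surface of collagen I or II fibrils and link them to other matrix, the short-chain collagen VIII forms lattices in vessel walls and other sheets, collagens XIII and XXIII are membrane proteins whose ectodomain can be shed by furin-like proteases, and collagen XVIII carries heparan sulphate and holds the endostatin fragment at its C-terminal end.

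Library totals ran from 19.9 to 64.7 M counts, with a median of 26.8 M (M, 1e+06 counts). Levels are in CPM, counts per 1e+06 counts, after TMM scaling, which sets libraries to a common scale by the trimmed bulk of genes. The hypoxic smooth muscle libraries stood apart: their TMM factors were 0.518 to 0.545, against 0.896 to 1.26 in the other groups, and the mitochondrial ribosomal RNAs mt-Rnr1 and mt-Rnr2 took 11.6% to 13.3% of their counts, against at most 0.0889% elsewhere. With library size alone in place of TMM, the median log2 difference of all genes between hypoxic and normoxic smooth muscle cultures moved from -0.12 to -1.49, so fold changes of members in these libraries are given under both scalings, and the interaction terms under TMM. The 10 smooth muscle markers listed for checking (among them Acta2, Tagln and Myh11) summed to 94.4 to 118 CPM there, with Actg2 and Myocd at 0, against 3751 to 4194 in normoxic smooth muscle, 3737 to 5306 in normoxic osteoblast and 94.1 to 101 in normoxic proliferating cultures, so the label of the hypoxic smooth muscle group was not borne out by these markers. Chondrocyte markers summed to 3214 to 9545 CPM in normoxic and 912 to 1397 in hypoxic chondrocyte cultures, the latter with Cnmd and Matn1 at 0, and to 100.2 to 141 in normoxic proliferating cells. Osteoblast markers, led by Spp1, summed to less in normoxic osteoblast cultures (1089.7 to 1282 CPM) than in normoxic proliferating cells (1935 to 2689.6), and to 5028 to 5325 in hypoxic osteoblast cultures. Gene by gene, 4 of the 8 osteoblast markers tested were called higher and 3 lower in normoxic osteoblast than in proliferating cultures (median log2 change 0.36), beside 40.9% and 37.8% of all genes. The 10 hypoxia response genes listed for checking summed to 464 to 2281 CPM over the normoxic and 4840.5 to 7006 over the hypoxic libraries. Of other cell types, macrophage, adipocyte, Schwann and endothelial markers each summed to at most 60.4 CPM in any library. Replicate 4 of the normoxic proliferating and of the normoxic osteoblast group also differed from its 3 companions, and values without it are given where it moves a result. Replicate 4 of the normoxic smooth muscle group stood apart as well. Its chi-square per degree of freedom against each companion was 14.0 to 20.2, and between the companions 6.10 to 7.94.

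Promoter windows are shown for 5 members: Col6a2 and Col6a3, collagen VI chains that rose in chondrocyte and osteoblast cultures, Col8a1 and Col23a1, which fell at 0.5% O2 in osteoblast and smooth muscle cultures, and Col16a1, which was higher at 0.5% O2 in proliferating and osteoblast cultures. Each line gives the 250 bases before a start site, 5′ to 3′ on the gene's own strand, from RefSeq (build GRCm38.p6), with any match to a searched motif in capitals. The windows are chr10:76623631-76623880 (minus strand, the upstream of 2 listed starts), chr1:90843972-90844221 (minus strand), chr16:57754738-57754987 (minus strand), chr11:51289670-51289919 (plus strand) and chr4:130047590-130047839 (plus strand), each directly before the annotated gene. The RefSeq table matched 8 of the 10 members; Col12a1 and Col14a1 were not matched.
Col6a2: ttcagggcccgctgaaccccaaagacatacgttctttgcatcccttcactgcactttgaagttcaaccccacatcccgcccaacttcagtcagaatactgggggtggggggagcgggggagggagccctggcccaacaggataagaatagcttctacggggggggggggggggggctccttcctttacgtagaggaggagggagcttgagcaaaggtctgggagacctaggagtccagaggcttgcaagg
Col6a3: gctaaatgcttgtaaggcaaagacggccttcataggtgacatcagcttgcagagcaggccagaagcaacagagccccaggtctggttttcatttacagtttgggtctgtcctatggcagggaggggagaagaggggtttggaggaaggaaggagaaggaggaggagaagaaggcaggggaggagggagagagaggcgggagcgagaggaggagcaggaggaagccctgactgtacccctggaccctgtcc
Col8a1: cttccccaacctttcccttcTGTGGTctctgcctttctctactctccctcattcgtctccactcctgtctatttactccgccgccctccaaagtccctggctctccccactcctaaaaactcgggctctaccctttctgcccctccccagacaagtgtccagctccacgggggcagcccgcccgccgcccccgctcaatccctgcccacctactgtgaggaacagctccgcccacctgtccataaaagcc
Col23a1: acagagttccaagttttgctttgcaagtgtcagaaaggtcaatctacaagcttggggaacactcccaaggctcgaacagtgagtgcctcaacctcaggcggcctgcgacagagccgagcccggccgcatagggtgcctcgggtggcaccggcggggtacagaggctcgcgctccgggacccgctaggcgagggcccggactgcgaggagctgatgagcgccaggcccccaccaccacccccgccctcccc
Col16a1: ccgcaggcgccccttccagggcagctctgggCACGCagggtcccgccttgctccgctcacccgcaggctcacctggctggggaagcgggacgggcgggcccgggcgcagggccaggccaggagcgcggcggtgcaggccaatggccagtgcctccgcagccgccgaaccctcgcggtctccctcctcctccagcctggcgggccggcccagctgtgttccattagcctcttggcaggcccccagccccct
Col6a1 and Col6a2 are neighbours on chromosome 10 in the same orientation, 85.2 kb apart, and Col6a3 lies on chromosome 1. The window listed for Col6a1 reaches into its annotated gene and is not printed.

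The motifs searched, on both strands, were the hypoxia-inducible factor cores ACGTG and GCGTG, the RUNX site TGTGGT, the TEAD site GGAATG, the AP-1 site TGANTCA and the TATA box TATAAA. Col8a1 held TGTGGT at position -230 from the start site, a motif in 14% of the 32851 mouse promoter windows of this length. Col16a1 held CACGC, the reverse complement of GCGTG, at -219 (in 28.2% of all windows), and the printed windows of Col6a2, Col6a3 and Col23a1 held none of the 6. Among the windows not printed, GCGTG lay at -168 before the other Col6a2 start, whose window reaches into the annotated gene, CACGC at -156 in that of Col13a1, and ACCACA, the reverse complement of the RUNX site, at -12 in 1 of those of Col18a1. In the Col6a1 window the AP-1 match TGACTCA lay at -90 (in 6.75%). The letters ACGTG were in none of the 10 windows listed for 8 of the members, against 16.6% of all windows, and TATAAA was in that of Col13a1 alone, against 12.4%. The TEAD motif, in 12.6% of all windows, matched at 1 of the windows listed for Col6a2 and 1 for Col18a1. These matches describe letters in a short window, and no factor's binding was measured.

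Differentiation at 21% O2 raised most of the abundant members and lowered Col18a1. The number of members called (adjusted p under 0.05 in edgeR's quasi-likelihood test, with Benjamini-Hochberg adjustment over all genes tested) is set beside the share of all tested genes called in the same comparison, which was high throughout. In normoxic chondrocyte against proliferating cultures 7 of the 10 members had enough counts to be tested, and all 7 were called, 6 higher and 1 lower, against 74.9% of all genes (37.7% higher, 37.2% lower). Osteoblast cultures gave 7 called of 8 tested, 6 up and 1 down, beside 78.7% of all genes (40.9% higher, 37.8% lower). For smooth muscle all 8 tested passed, with 7 up and 1 down, beside 79.7% of all genes (40.8% higher, 38.9% lower). The member that fell in each was Col18a1. Col23a1, tested in osteoblast and smooth muscle but not chondrocyte cultures, had 1 count in normoxic proliferating libraries against 6863 and 1627. It passed the filter only through the derivative, so its call as higher was set in advance. The same holds for osteoblast cultures at 0.5% O2 (61 counts against 1). The counts and medians given here include it. Of the 4 RNAs listed as signs of RNA quality (mt-Rnr1, mt-Rnr2, Rn7sk and Malat1), 3 were called higher in normoxic chondrocyte, 4 in osteoblast and 4 in smooth muscle cultures, with median log2 changes of 0.96, 1.17 and 0.98, and their part in these changes was not tested. Smooth muscle markers were called higher for 7 of 7 tested in normoxic chondrocyte (median log2 change 5.44) and 9 of 9 in osteoblast cultures (6.33). Osteoblast markers gave 6 up and 1 down among 9 tested in chondrocyte cultures (3.81). Chondrocyte markers gave 6 up and 0 down among 7 tested in osteoblast cultures (4.73). The part of these markers in the changes of the members was not tested either. The median log2 change of the members tested was 2.90 in chondrocyte, 2.07 in osteoblast and 0.91 in smooth muscle cultures, beside -0.00294, 0.0656 and 0.0276 over all genes. At 0.5% O2, 5 of 7 were called in chondrocyte cultures, 4 up and 1 down, beside 69.5% of all genes (34.9% higher, 34.6% lower). Osteoblast cultures had 8 of 8 called, 6 up and 2 down, beside 71.3% of all genes (36.2% higher, 35.1% lower), and smooth muscle cultures 7 of 7, 4 up and 3 down, beside 70.0% of all genes (33.8% higher, 36.2% lower). With library size alone, Col6a1, Col6a2 and Col18a1 turned from higher to lower in this last comparison, as given for each gene, beside 83.0% of all genes called (12.4% higher, 70.6% lower).

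Together the 10 genes took 0.251% of all counts in normoxic proliferating cells, 2.06% in normoxic chondrocyte, 1.72% in osteoblast and 0.694% in smooth muscle cultures, and 0.166% in hypoxic smooth muscle cultures (means over libraries). Their composition per kb of the longest coding transcript, which is free of the scaling between libraries, shifted with the lineage. Col6a1 was the most abundant per kb in proliferating cells, at 34.1 ± 1.44% (SD, n = 4) of the summed counts per kb of the 10, followed by Col18a1 at 20.6 ± 0.793%. In normoxic osteoblast cultures Col12a1 held 39.1 ± 7.36% and Col18a1 0.571 ± 0.181%. Hypoxic osteoblast cultures gave 21.8 ± 0.755% (SD, n = 3) to Col12a1 and 1.9 ± 0.18% to Col8a1, which had held 12.7 ± 1.48% at 21% O2. In hypoxic smooth muscle cultures Col6a1 held 49 ± 2.36%, Col18a1 17.1 ± 0.814% and Col12a1 6.33 ± 0.416%.

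**Figure D1:**
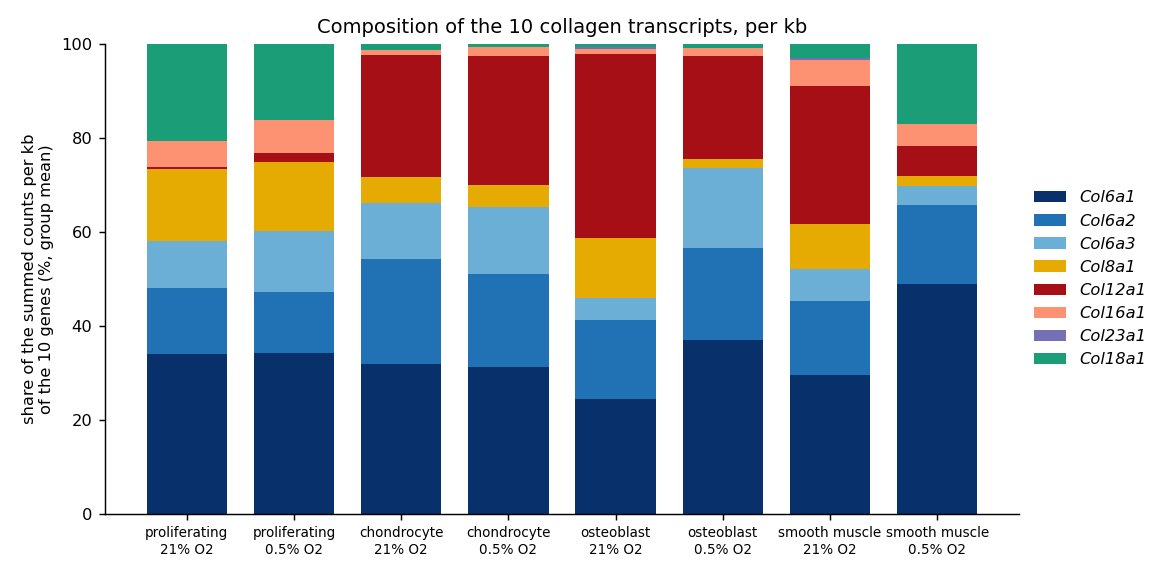
Stacked bars give, for each of the 8 groups, the mean share of each gene in the summed counts per kb of the 10 collagen genes; Col13a1 and Col14a1 are too scarce to be drawn. Col12a1 (dark red) grows from 0.585% in normoxic proliferating cells to 39.1% in normoxic osteoblast cultures, and Col18a1 (green) is large in proliferating and hypoxic smooth muscle cultures.

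**Figure D2:**
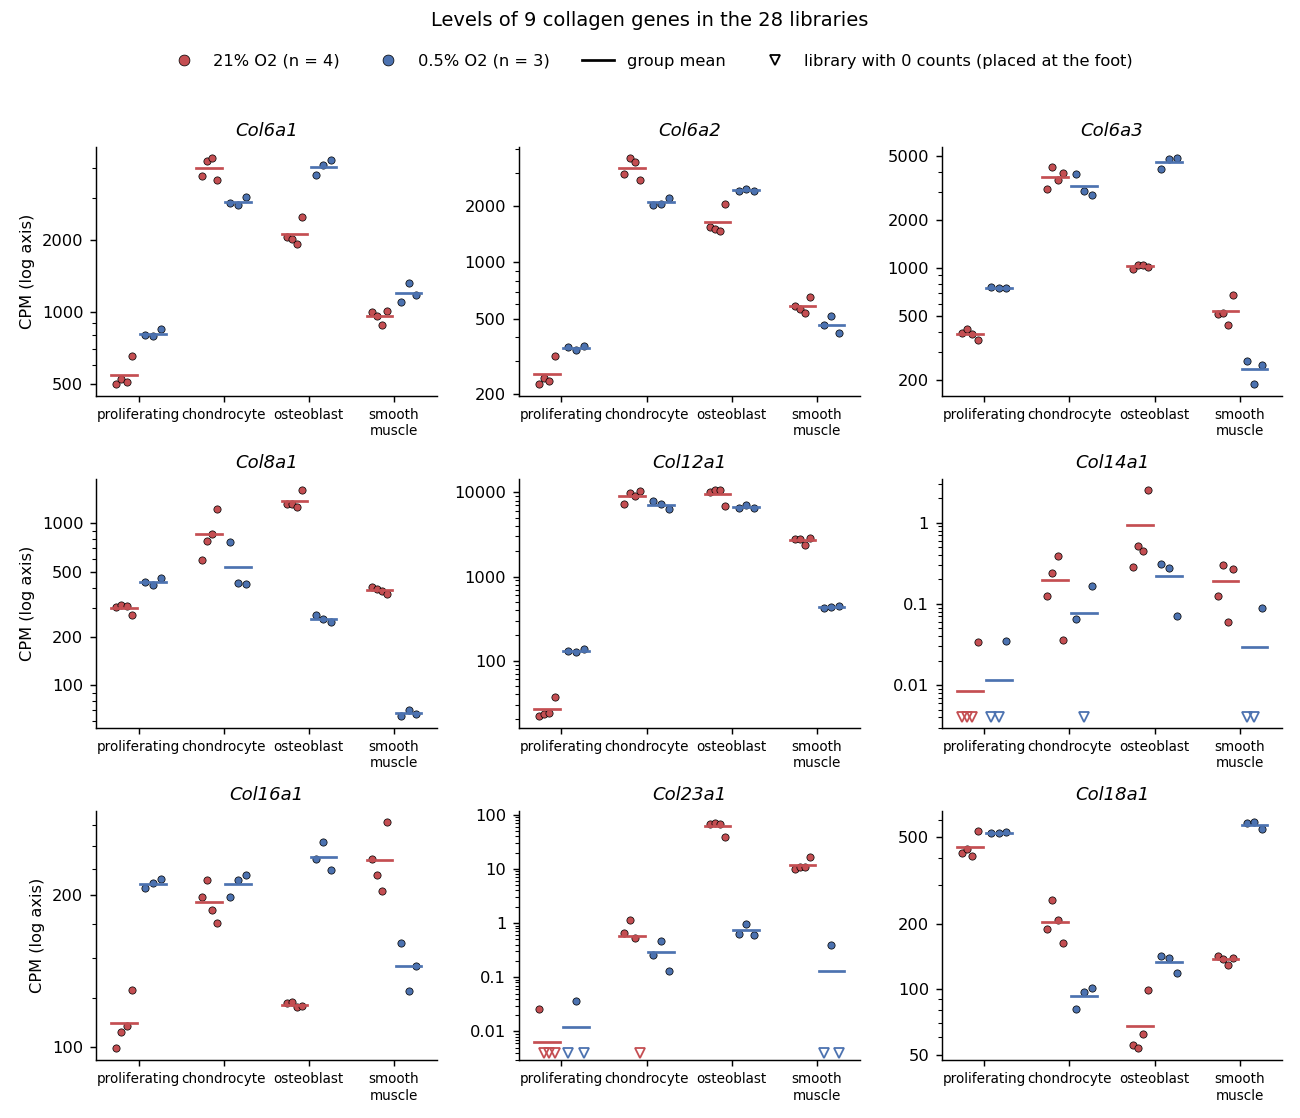
Each panel shows 1 gene, with its level in CPM (TMM scaling, log axis) in every library by culture; red points are 21% O2, blue points 0.5% O2, lines are group means and open triangles are libraries with 0 counts. Col13a1, with 4 counts in all, is left out. Col12a1 spans from 21.8 CPM in a normoxic proliferating library to 10601 in a normoxic osteoblast library.

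Ranked by group mean, Col6a1 and Col6a3 were highest in hypoxic osteoblast cultures (4050.1 ± 306 and 4603 ± 375 CPM, SD, n = 3), and normoxic chondrocyte cultures came next (3978 ± 415 and 3699 ± 492, SD, n = 4), with overlapping libraries. Col6a2 was highest in normoxic chondrocyte cultures (3177 ± 389), clear of the hypoxic osteoblast libraries that came next (2411 ± 38.6). For Col12a1 the first 4 groups, normoxic osteoblast, normoxic chondrocyte, hypoxic chondrocyte and hypoxic osteoblast, overlapped from each to the next, and the remaining groups were separate. Col8a1 was highest in normoxic osteoblast and lowest in hypoxic smooth muscle cultures, 20.5 times apart under TMM and 41.7 times with library size alone. Col18a1 was highest in hypoxic smooth muscle cultures under TMM (569 ± 23.5), in hypoxic proliferating cells with library size alone, and lowest in normoxic osteoblast cultures (67.4 ± 21.2).

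The collagen VI chains rose in every differentiated culture at 21% O2, most in chondrocyte cultures. Col6a1 (chromosome 10, 76708792 to 76726168, minus strand) encodes the alpha1 chain. Its level was 498, 524, 508 and 652 CPM in the 4 normoxic proliferating libraries and 3699, 4267, 4394 and 3552 in the chondrocyte libraries, with no overlap. Normoxic osteoblast libraries held 2052, 2016, 1921 and 2498 CPM and smooth muscle libraries 999.5, 962, 880 and 1003, so all 3 derivatives lay above proliferating cells. The log2 fold changes were 2.90 ± 0.11 (SE, adjusted p = 3.3e-10) in chondrocyte, 1.95 ± 0.12 (SE, adjusted p = 2.37e-07) in osteoblast and 0.79 ± 0.081 (SE, adjusted p = 2.71e-07) in smooth muscle cultures. Because these are bulk RNA samples, a higher share of cells expressing a gene and more RNA per cell cannot be told apart.

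Col6a2, the alpha2 chain (chromosome 10, 76595762 to 76623630, minus strand), held 226, 242, 235 and 319 CPM in normoxic proliferating and 2953, 3577, 3425 and 2751 in normoxic chondrocyte libraries. That is a 12.7-fold rise, log2 3.67 ± 0.13 (SE, adjusted p = 4.8e-10). Its rise was 6.38-fold in osteoblast and 2.24-fold in smooth muscle cultures (adjusted p = 1.64e-07 and 3.74e-07). Col6a3, the long alpha3 chain from whose C-terminal end endotrophin is cleaved (chromosome 1, 90765923 to 90843971, minus strand), went from 393, 420.1, 388 and 357 CPM to 3103, 4258, 3545 and 3888 in chondrocyte libraries, 9.7-fold (log2 3.28 ± 0.10 SE, adjusted p = 7.32e-11). In normoxic osteoblast libraries it reached 992, 1043, 1049 and 1019 CPM, 2.61-fold, and in smooth muscle libraries 522, 527, 445 and 685, 1.37-fold (adjusted p = 3.83e-08 and 0.00196).

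Low oxygen moved the 3 chains in different directions in different cultures. In proliferating cells all 3 were higher at 0.5% O2: Col6a1 lay at 797, 789.8 and 846 CPM, log2 0.57 ± 0.085 (SE, adjusted p = 0.000114) against 21% O2, Col6a2 at 356, 343 and 361, log2 0.46 ± 0.11 (SE, adjusted p = 0.0052) and not called when genes were tested without a filter (adjusted p = 0.0572), and Col6a3 at 758, 749 and 757, log2 0.95 ± 0.051 (SE, adjusted p = 2.07e-09). All 7 members tested in that comparison were called higher, against 65.4% of all genes (33.1% higher, 32.3% lower). The 4 RNAs listed as signs of RNA quality were also called higher there, with a median log2 difference of 1.43 and sums of 465 to 561 CPM at 21% O2 and 1432 to 1509.8 at 0.5% O2, and their part in the rise of the members was not tested. Chondrocyte cultures went the other way for 2 chains. Col6a1 held 2839, 2799 and 3011 CPM and Col6a2 2021, 2035 and 2193 at 0.5% O2, every library below every normoxic chondrocyte library, with log2 differences of -0.48 ± 0.095 (SE, adjusted p = 0.00376) and -0.63 ± 0.10 (SE, adjusted p = 0.0012). For Col6a3 the hypoxic libraries (3882, 3030.3 and 2838 CPM) overlapped the normoxic ones and the difference of -0.20 ± 0.13 was not called (adjusted p = 0.299). In this comparison 3 of 8 members tested were called, all lower, beside 22.2% of all genes (10.4% higher, 11.8% lower). Chondrocyte markers gave 0 up and 7 down among 8 tested (median log2 difference -3.33) and osteoblast markers 0 up and 6 down among 10 (-1.21). Their part in the fall of the members was not tested.

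Osteoblast cultures at 0.5% O2 had the highest mean Col6a3 level of the 8 groups. The 3 libraries held 4171, 4789.7 and 4847 CPM against 992, 1043, 1049 and 1019 at 21% O2, 4.51-fold and log2 2.17 ± 0.093 (SE, adjusted p = 3.67e-07). Col6a1 rose 1.92-fold to 3717, 4112 and 4321 CPM (adjusted p = 0.000156) and Col6a2 1.48-fold to 2382, 2454 and 2395 (adjusted p = 0.00534). Among all members 8 of 9 tested were called in this comparison, 5 higher and 3 lower, beside 54.3% of all genes (27.0% higher, 27.3% lower). Without replicate 4 of the normoxic osteoblast group the 3 log2 differences were 1.03, 0.69 and 2.17 for Col6a1, Col6a2 and Col6a3. The summed osteoblast markers were also higher in the hypoxic osteoblast libraries. Cell-cycle genes gave 5 up among 5 tested (median log2 difference 2.52) and adipocyte markers 2 up among 2 (2.61). Smooth muscle markers gave 0 up and 6 down among 9 (-1.10). The part of these lists in this result was not tested.

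In smooth muscle cultures the chains separated. Col6a3 fell from 522, 527, 445 and 685 CPM at 21% O2 to 264, 189 and 251 at 0.5% O2, log2 -1.07 ± 0.14 (SE, adjusted p = 5.92e-06), and -2.44 with library size alone. Col6a1 lay at 1096, 1320.4 and 1179 CPM, above the normoxic libraries under TMM (log2 0.46 ± 0.081 SE, adjusted p = 0.000113) and below them with library size alone (-0.91), so its direction turns on the scaling. Col6a2 held 462, 516 and 420.3 CPM, a difference of -0.19 ± 0.088 that was not called (adjusted p = 0.0656) and that became -1.56 and was called with library size alone. Under TMM it was also called with no filter (-0.31, adjusted p = 0.001), limma-voom (0.0363), at least 10 counts in every library (0.0479), all 28 libraries (0.0489), without hypoxic replicate 2 (-0.29) and without normoxic replicate 3 (-0.24). Over all members 7 of 8 tested were called under TMM, 2 higher and 5 lower, beside 75.6% of all genes (35.4% higher, 40.2% lower). Among the 5, Col23a1 had 4 counts in the hypoxic against 1627 in the normoxic libraries, and passed the filter through the latter. With library size alone Col6a1 and Col6a2 were both called lower, beside 86.0% of all genes called (13.4% higher, 72.6% lower). Against hypoxic proliferating cells, hypoxic smooth muscle cultures had log2 changes of 0.74 ± 0.079, 0.58 ± 0.084 and -1.51 ± 0.11 for Col6a1, Col6a2 and Col6a3 under TMM and of -0.54, -0.70 and -2.78 with library size alone. The fall of Col6a3 therefore kept its sign under both scalings.

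Ratios between chains within a library do not depend on the scaling between libraries. Per kb, the ratio of Col6a3 to Col6a1 was 0.196, 0.21, 0.222 and 0.165 in the normoxic and 0.455, 0.473 and 0.455 in the hypoxic osteoblast libraries. Every hypoxic value exceeded every normoxic one. Smooth muscle libraries gave the reverse order, 0.212, 0.222, 0.205 and 0.277 at 21% O2 and 0.0977, 0.0581 and 0.0863 at 0.5% O2. The ratio of Col6a2 to Col6a1 was lowest in hypoxic smooth muscle libraries, at 0.372, 0.345 and 0.314. By group mean it was highest in normoxic chondrocyte cultures, at 0.704, 0.739, 0.687 and 0.683, overlapping the normoxic osteoblast libraries at 0.66, 0.659, 0.671 and 0.723. Its normoxic libraries lay above the hypoxic ones in each of the 4 cultures. Length per transcript sets the absolute size of these ratios, and they do not give protein stoichiometry.

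**Figure D3:**
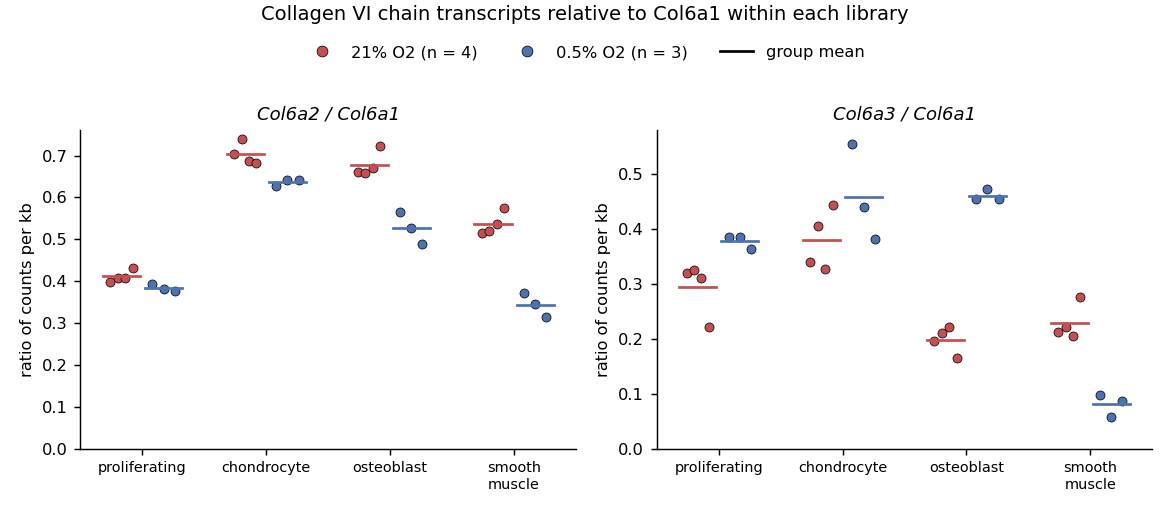
The left panel shows the ratio of Col6a2 to Col6a1 and the right panel that of Col6a3 to Col6a1, as counts per kb within each of the 28 libraries, by culture and oxygen level; lines are group means. In osteoblast cultures the 3 hypoxic libraries sit above the 4 normoxic ones in the right panel, and in smooth muscle cultures below them.

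**Figure D4:**
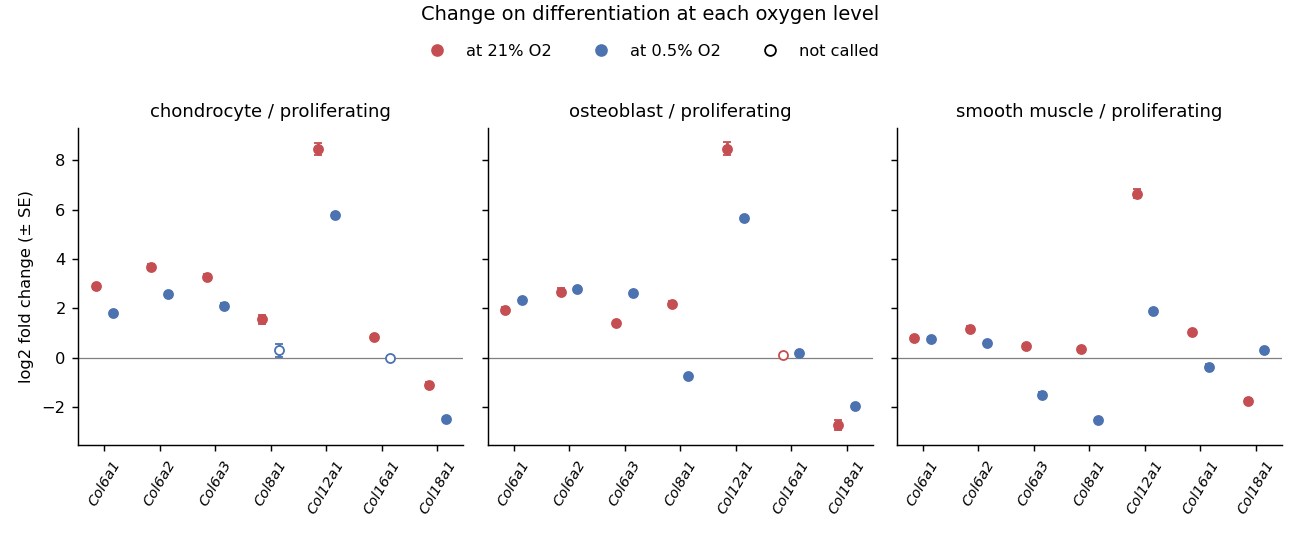
Points give the log2 fold change against proliferating cells at the same oxygen level, with its SE, for 7 members in chondrocyte (left), osteoblast (middle) and smooth muscle (right) cultures, TMM scaling; open points were not called. Col12a1 has the largest rise in each panel and Col8a1 lies above 0 at 21% O2 but below it at 0.5% O2 in osteoblast and smooth muscle cultures; in smooth muscle cultures at 0.5% O2 the points of Col6a1, Col6a2 and Col18a1 lie below 0 with library size alone.

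Col8a1, a chain of the lattice-forming collagen VIII (chromosome 16, 57624258 to 57754737, minus strand), reversed with oxygen in osteoblast cultures. At 21% O2 it rose from 305, 315, 310.2 and 271 CPM in proliferating to 1314, 1313, 1256 and 1604 in osteoblast libraries, log2 2.18 ± 0.095 (SE, adjusted p = 3e-08). At 0.5% O2 it fell, from 432, 419 and 461 CPM in proliferating to 271, 256 and 246 in osteoblast libraries, log2 -0.76 ± 0.068 (SE, adjusted p = 7.05e-08). The difference between these 2 changes, tested as an interaction (the change at 0.5% O2 minus that at 21% O2), was -2.90 ± 0.13 (SE, adjusted p = 2.13e-10). Hypoxic osteoblast libraries thus held 5.31-fold less Col8a1 than normoxic ones, log2 -2.41 ± 0.12 (SE, adjusted p = 6.75e-07), and no library overlapped. Without replicate 4 of the normoxic group the value was -2.32. The smooth muscle markers were also lower in hypoxic osteoblast cultures, with 0 of 9 tested called higher and 6 lower (median log2 difference -1.10), beside 27.0% and 27.3% of all genes. Their sums were 2240.2 to 2546 CPM against 3737 to 5306, none of the 10 at 0. In smooth muscle cultures 0 of 8 were called higher and 7 lower at 0.5% O2 (-4.31), beside 35.4% and 40.2% of all genes. With library size alone 0 were called higher and 8 lower (-5.67), beside 13.4% and 72.6%. Col8a1 and Col23a1 fell in both cultures, and the part of these markers in their change was not tested.

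Smooth muscle libraries also fell with low oxygen: 404, 391, 380.3 and 366 CPM at 21% O2 and 64.2, 70.5 and 66.2 at 0.5% O2, log2 -2.39 ± 0.081 (SE, adjusted p = 1.08e-12) under TMM and -3.76 with library size alone. The rise from proliferating to smooth muscle cultures at 21% O2 was small, log2 0.33 ± 0.059 (SE, adjusted p = 8.88e-05), and was not called when all 28 libraries shared the estimate of spread (adjusted p = 0.138). In chondrocyte cultures the normoxic libraries were widely spread at 597, 781, 855 and 1231 CPM, and the hypoxic ones at 766, 426 and 422. Their difference of -0.71 ± 0.32 was not called (adjusted p = 0.179), but it was when all 28 libraries shared the estimate of spread (-0.70, adjusted p = 0.00736). Not called either was the change from hypoxic proliferating to hypoxic chondrocyte cultures, 0.30 ± 0.27 (adjusted p = 0.372), which became -0.0323 without hypoxic chondrocyte replicate 1. In proliferating cells Col8a1 was higher at 0.5% O2, log2 0.54 ± 0.057 (SE, adjusted p = 1.59e-06).

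Its partner chain gene Col8a2, which is not 1 of the 10 and was singled out after its values were seen, was close to absent in proliferating cells (0.139 ± 0.116 CPM at 21% O2, SD, n = 4) and reached 967 ± 234 in normoxic osteoblast cultures. The ratio of Col8a2 to Col8a1 per kb was 0.769, 0.761, 0.794 and 0.968 in normoxic and 2.85, 3.03 and 2.52 in hypoxic osteoblast libraries. In smooth muscle libraries it was 0.931, 1, 0.932 and 1.27 at 21% O2 and at most 0.0114 at 0.5% O2.

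Col12a1, a FACIT collagen of periosteum, tendon and fascia (chromosome 9, 79598991 to 79718831, minus strand), had the widest range of the abundant members. Normoxic proliferating libraries held 21.8, 23.5, 23.7 and 36.9 CPM. Chondrocyte libraries held 7188, 9946, 9074 and 10244 CPM and osteoblast libraries 9999.6, 10601, 10561 and 6811, 353-fold and 356-fold higher. The log2 changes were 8.46 ± 0.23 (SE, adjusted p = 3.3e-10) and 8.48 ± 0.26 (SE, adjusted p = 5.69e-09). Smooth muscle libraries held 2753, 2799.9, 2384 and 2835 CPM, 100.1-fold above proliferating cells (log2 6.65 ± 0.19 SE, adjusted p = 3.33e-10). The normoxic chondrocyte and osteoblast libraries overlapped and their difference of -0.0583 ± 0.16 was not called (adjusted p = 0.777).

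The rise was smaller at 0.5% O2 in all 3 lineages. Hypoxic proliferating libraries already held 130, 126 and 136 CPM, 4.94-fold the normoxic level (log2 2.31 ± 0.18 SE, adjusted p = 1.75e-05), and hypoxic chondrocyte and osteoblast libraries 7929, 7251 and 6315 and 6475, 6983 and 6596. From proliferating cells the log2 changes at 0.5% O2 were 5.78 ± 0.097, 5.68 ± 0.079 and 1.91 ± 0.070 in chondrocyte, osteoblast and smooth muscle cultures, all called, the last being 0.63 with library size alone. The interaction terms were -2.65 ± 0.23 (SE, adjusted p = 8.69e-07), -2.76 ± 0.24 (SE, adjusted p = 2.79e-07) and -4.76 ± 0.18 (SE, adjusted p = 1.07e-13). In smooth muscle cultures the level itself fell 5.63-fold at 0.5% O2, to 421, 430.2 and 449.7 CPM (log2 -2.49 ± 0.084 SE, adjusted p = 9.88e-13, and -3.86 with library size alone). In osteoblast cultures the difference of -0.50 ± 0.16 (SE, adjusted p = 0.0226) rested on groups that overlapped. It was not called in 6 of the 7 fits that leave out 1 library, and without normoxic replicate 4 it was -0.63 (adjusted p = 1.03e-06). In chondrocyte cultures it was -0.36 ± 0.13 and not called (adjusted p = 0.0624), although it was called with library size alone (-0.44, adjusted p = 0.0197), DESeq2 (0.0223), no filter (0.0361) and without normoxic chondrocyte replicate 1 (-0.46, adjusted p = 0.00881).

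Col16a1, a FACIT collagen (chromosome 4, 130047840 to 130099283, plus strand), varied least of the abundant members: its highest group mean was 2.13 times its lowest under TMM and 3.78 times with library size alone. Normoxic proliferating libraries held 99.4, 107, 110 and 130 CPM and hypoxic ones 206, 211 and 215, log2 0.91 ± 0.075 (SE, adjusted p = 2.52e-07). Osteoblast libraries stayed at 122, 123, 119.9 and 120.5 CPM at 21% O2 and lay at 236, 254 and 224 at 0.5% O2, log2 0.98 ± 0.076 (SE, adjusted p = 9.13e-06). The oxygen difference was thus near 1 on the log2 scale in both cultures. Chondrocyte libraries gave 199, 214, 187 and 176 CPM at 21% O2 and 198, 214 and 219 at 0.5% O2, which overlapped (log2 0.10 ± 0.078, adjusted p = 0.403). Smooth muscle libraries went from 235, 219, 204 and 278 CPM at 21% O2 down to 161, 129 and 145 at 0.5% O2, log2 -0.55 ± 0.11 (SE, adjusted p = 0.000243) and -1.92 with library size alone. Against proliferating cells at 21% O2 it rose in chondrocyte and smooth muscle cultures (0.83 ± 0.086 and 1.04 ± 0.100). The osteoblast change of 0.11 ± 0.080 was not called (adjusted p = 0.228), although it was called without normoxic proliferating replicate 4 (0.18, adjusted p = 0.0127). At 0.5% O2 the osteoblast change of 0.18 ± 0.069 (SE, adjusted p = 0.0321) lost its call in 4 of 6 fits that leave out 1 library and with all 28 libraries (adjusted p = 0.115), and became -0.0537 with library size alone.

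Col14a1, the FACIT collagen also called undulin (chromosome 15, 55307750 to 55520803, plus strand), was near the floor, with 187 counts over the 28 libraries. Of these, 111 came from the 4 normoxic osteoblast libraries, whose levels were 0.283, 0.519, 0.446 and 2.5 CPM, and replicate 4 alone held 77 of them. Proliferating cells had 1 count at each oxygen level. Over pooled counts the ratio of normoxic osteoblast to proliferating libraries was 172 (95% exact counting interval 30.3 to 6859), and without osteoblast replicate 4 it was 72.4 (12.1 to 2942), for counting error only. The oxygen difference in osteoblast cultures was not called (-2.09 ± 0.88, adjusted p = 0.0725), but it was with DESeq2 (adjusted p = 0.0299), with all 28 libraries in the fit (0.0307) and without normoxic replicate 1 (-2.39, adjusted p = 0.0427). Normoxic chondrocyte libraries were lower than normoxic osteoblast libraries, log2 -2.25 ± 0.83 (SE, adjusted p = 0.0407), but this call was lost in 4 of 8 fits that leave out 1 library: without osteoblast replicate 4 (-1.06, adjusted p = 0.142) and without chondrocyte replicate 1, 2 or 4 (adjusted p = 0.103, 0.0773 and 0.0964). It was also lost with limma-voom (adjusted p = 0.072), no filter (0.0506) and the replicate block (0.138).

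Among the transmembrane collagens Col23a1 (chromosome 11, 51289920 to 51583918, plus strand) was present in normoxic osteoblast and smooth muscle cultures and close to absent from all groups at 0.5% O2. Proliferating libraries held 1 count in all at each oxygen level. The normoxic osteoblast libraries held 68, 71.7, 67.4 and 38.2 CPM, or 6863 counts, and the normoxic smooth muscle libraries 10.1, 11.1, 10.7 and 16.3 CPM, or 1627 counts. Pooled counts gave ratios to normoxic proliferating cells of 10642 (95% exact counting interval 1909 to 420392) in osteoblast and 2114 (95% exact counting interval 379 to 83550.3) in smooth muscle cultures, for counting error only. Normoxic chondrocyte libraries stayed low, at 0.654, 1.12, 0.528 and 0 CPM, and were 107-fold below osteoblast libraries (log2 -6.74 ± 0.51 SE, adjusted p = 9.01e-06).

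At 0.5% O2 the osteoblast libraries held 0.622, 0.967 and 0.606 CPM, all far below the normoxic ones. This was the largest oxygen difference of any member in osteoblast cultures, 82.4-fold lower and log2 -6.37 ± 0.31 (SE, adjusted p = 1.06e-06). Without normoxic replicate 4, which had the lowest normoxic value, it was -6.54. Hypoxic smooth muscle libraries held 0, 0.389 and 0 CPM, and their 4 counts all came from replicate 2. The log2 difference from normoxic smooth muscle cultures was -6.52 ± 0.53 (SE, adjusted p = 2.88e-08), -7.83 with library size alone and -11.31 without that replicate, when the group is at 0 and the fitted value depends on the prior count and is no bound. The interaction terms rest on 1 count in each proliferating group: -7.17 ± 3.13 (SE, adjusted p = 0.0465) for smooth muscle, which was not called in 8 of the 14 fits that leave out 1 library (adjusted p = 0.966 without hypoxic proliferating replicate 2), nor with all 28 libraries (0.185) or the replicate block (0.052), and -7.02 ± 3.14 for osteoblast, not called (adjusted p = 0.0717). The osteoblast term was called with DESeq2 (adjusted p = 2.89e-05), limma-voom (0.00866), the replicate block (0.0191) and without normoxic osteoblast replicate 4 (0.0139). Col13a1, the other member of this class (chromosome 10, 61838236 to 61979108, minus strand), had 4 counts in all 28 libraries and was never tested. Its 0 counts in the 4 normoxic chondrocyte libraries allow up to 0.0266 CPM over the group, for counting error only.

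Col18a1, the source of endostatin (chromosome 10, 77052178 to 77166548, minus strand), fell on differentiation at 21% O2, where most other abundant members rose. At 21% O2 its highest levels were in proliferating cells, at 419.9, 439.7, 408 and 532 CPM, and lower in each derivative: 189, 256, 207 and 163 in chondrocyte, 55.2, 53.4, 62.3 and 98.6 in osteoblast and 142, 138, 129.7 and 139 in smooth muscle libraries. The log2 changes were -1.11 ± 0.13 (SE, adjusted p = 2.16e-05), -2.75 ± 0.20 (SE, adjusted p = 1.23e-06) and -1.75 ± 0.076 (SE, adjusted p = 7.2e-12). At 0.5% O2 it fell again in chondrocyte and osteoblast cultures, by 5.6-fold and 3.92-fold (adjusted p = 1.91e-11 and 4.84e-12). The fall did not occur in smooth muscle cultures under TMM, where the 3 hypoxic libraries held 581, 583 and 541 CPM, log2 0.30 ± 0.066 (SE, adjusted p = 0.00178) against hypoxic proliferating cells and -0.98 with library size alone. That TMM value was not called when all 28 libraries shared the estimate of spread (adjusted p = 0.358).

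The oxygen difference of Col18a1 had opposite signs in chondrocyte and osteoblast cultures. Hypoxic chondrocyte libraries held 81.4, 97 and 102 CPM, 2.21-fold below normoxic ones (log2 -1.14 ± 0.15 SE, adjusted p = 0.00112). Hypoxic osteoblast libraries held 142, 139 and 119 CPM, 1.99-fold above normoxic ones (log2 0.99 ± 0.21 SE, adjusted p = 0.00412). In smooth muscle cultures the rise was 4.57-fold, log2 2.19 ± 0.070 (SE, adjusted p = 5.6e-13) and 0.82 with library size alone. The interaction terms, set against proliferating cells, were -1.34 ± 0.19 (SE, adjusted p = 4.39e-05), 0.82 ± 0.25 (SE, adjusted p = 0.0128) and 2.02 ± 0.10 (SE, adjusted p = 1.4e-13) for chondrocyte, osteoblast and smooth muscle cultures. In proliferating cells the groups overlapped, and the difference of 0.21 ± 0.078 (SE, adjusted p = 0.0304) was not called in 6 of 7 fits that leave out 1 library, nor with library size alone (adjusted p = 0.16), no filter (0.0742) or all 28 libraries (0.426). The 5 cell-cycle genes listed for checking summed to 1278 to 1588 CPM in normoxic proliferating, 1124 to 1163 in hypoxic proliferating, 319 to 533 in normoxic chondrocyte, 248 to 297 in hypoxic chondrocyte, 301 to 364 in normoxic smooth muscle, 421 to 467 in hypoxic smooth muscle, 38.2 to 72.8 in normoxic osteoblast and 239 to 316 in hypoxic osteoblast libraries. Under TMM the 5 were lower in each normoxic derivative than in proliferating cells. At 0.5% O2 all 5 were called higher in osteoblast and in smooth muscle cultures, beside 27.0% and 35.4% of all genes called higher. In chondrocyte cultures 3 were called lower, and in proliferating cells 4 (median log2 difference -0.55), beside 11.8% and 32.3% of all genes called lower. With library size alone they summed to 372 to 454 CPM in normoxic and 218 to 250.2 in hypoxic smooth muscle libraries, so their direction in smooth muscle cultures turns on the scaling. Their part in the change of Col18a1 was not tested. Endothelial markers, another place of collagen XVIII, summed to at most 7.7 CPM in any library.

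**Figure D5:**
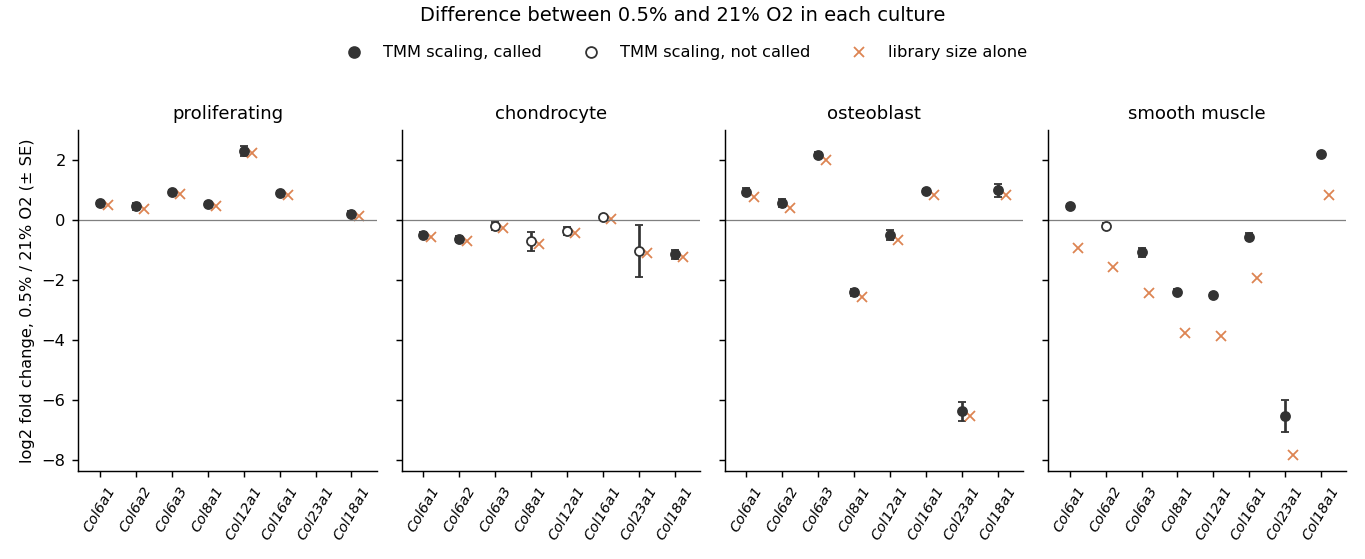
Points give the log2 difference between 0.5% and 21% O2, with its SE, for 8 members in proliferating, chondrocyte, osteoblast and smooth muscle cultures; filled points were called, open points were not, and crosses give the value with library size alone. Col6a3 and Col8a1 move in opposite directions in osteoblast cultures (2.17 and -2.41), and in smooth muscle cultures the crosses lie below the points, with Col6a1 on the other side of 0.

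Chondrocyte and osteoblast cultures were also compared with each other. At 21% O2, 8 of 9 members tested were called, 5 higher and 3 lower in chondrocyte cultures, beside 59.7% of all genes (28.6% higher, 31.1% lower). The 3 collagen VI chains were higher in chondrocyte cultures, by 1.88-fold for Col6a1, 1.94-fold for Col6a2 and 3.61-fold for Col6a3 (adjusted p = 9.95e-05, 0.000211 and 9.61e-07), as were Col16a1 and Col18a1. Col8a1 was lower, -0.66 ± 0.20 (SE, adjusted p = 0.0159), a call lost without chondrocyte replicate 2 (-0.60) or osteoblast replicate 4 (-0.58). Chondrocyte markers gave 6 up and 0 down among 8 tested (median log2 difference 3.76) and osteoblast markers 8 up and 1 down among 10 (2.49). Smooth muscle markers gave 0 up and 7 down among 9 (-1.30) and cell-cycle genes 5 up among 5 (3.49). The part of these lists in the differences of the members was not tested. At 0.5% O2, 5 of 8 were called, 1 higher and 4 lower, beside 57.6% of all genes (28.6% higher, 29.0% lower). Now Col6a1 and Col6a3 were lower in chondrocyte than in osteoblast cultures, -0.48 ± 0.090 and -0.49 ± 0.12 on the log2 scale (adjusted p = 0.000522 and 0.00327), and Col8a1 was higher, 1.07 ± 0.23 (SE, adjusted p = 0.00535), though not without osteoblast replicate 3 (1.02, adjusted p = 0.0702). Col6a2 differed by -0.20 ± 0.084 and was not called (adjusted p = 0.0552). It was called with library size alone (-0.31, adjusted p = 0.00592), RLE factors (0.0485), DESeq2 (0.018), limma-voom (0.0376) and without osteoblast replicate 3 (0.0398). Col18a1 was also lower (-0.51). The remaining lower call was Col23a1, -1.35 ± 0.55 (SE, adjusted p = 0.0486), on 24 against 61 counts, and it was not called in 5 of 6 fits that leave out 1 library, nor with DESeq2 (adjusted p = 0.0669), no filter (0.0758), all 28 libraries (0.0897) or the replicate block (0.0549). Interactions with oxygen were called for 7 of 8 members tested in chondrocyte cultures, all negative, beside 43.5% of all genes (21.6% higher, 21.9% lower). For osteoblast cultures they were called for 5 of 9, 3 positive and 2 negative, beside 54.2% of all genes (28.9% higher, 25.3% lower), and for smooth muscle cultures for 7 of 8, 1 positive and 6 negative, beside 70.4% of all genes (34.9% higher, 35.5% lower). The comparisons of 1 lineage with proliferating cells and with another oxygen level share groups, so their values stand side by side and are not independent.

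Other collagen genes were counted in the same fits. Of the 11 fibrillar collagen genes listed, normoxic chondrocyte, osteoblast and smooth muscle cultures each had 10 of 10 tested called higher than proliferating cells and none lower, beside 37.7%, 40.9% and 40.8% of all genes called higher. At 0.5% O2 the counts were 10 up and 0 down among 10 tested in chondrocyte, 9 up and 1 down among 10 tested in osteoblast and 1 up and 6 down among 9 tested in smooth muscle cultures (all genes called: 69.5%, 71.3% and 70.0%). In the last Col1a1 changed by -2.86 ± 0.086 (SE, adjusted p = 1.63e-10) under TMM and -4.14 with library size alone, which gave 0 up and 8 down, beside 83.0% of all genes (12.4% higher, 70.6% lower). Between oxygen levels the counts were 5 up and 0 down among 9 tested in proliferating, 0 up and 3 down among 10 tested in chondrocyte and 2 up and 2 down among 10 tested in osteoblast cultures, beside 65.4%, 22.2% and 54.3% of all genes. In smooth muscle cultures 0 up and 8 down among 10 tested were called, beside 75.6% of all genes, with a median log2 difference of -3.06 beside -0.12 over all genes. With library size alone these were 0 up and 9 down, beside 86.0% of all genes (13.4% higher, 72.6% lower). Of the 23 other non-fibrillar genes, mostly of collagens IV, VI, VIII, IX and X, 11 up and 1 down among 13 tested were called in normoxic chondrocyte, 10 up and 1 down among 13 tested in osteoblast and 9 up and 2 down among 13 tested in smooth muscle cultures, beside 74.9%, 78.7% and 79.7% of all genes. At 0.5% O2 they were 7 up and 4 down among 11 tested, 9 up and 3 down among 12 tested and 1 up and 3 down among 8 tested in the same order, beside 69.5%, 71.3% and 70.0% of all genes under TMM. With library size alone the last was 0 up and 6 down, beside 83.0% of all genes (12.4% higher, 70.6% lower). Between oxygen levels the counts were 4 up and 0 down among 7 tested in proliferating, 3 up and 8 down among 14 tested in chondrocyte, 5 up and 5 down among 13 tested in osteoblast and 2 up and 7 down among 13 tested in smooth muscle cultures, beside 65.4%, 22.2%, 54.3% and 75.6% of all genes. With library size alone they were 4 up and 0 down, 3 up and 9 down, 5 up and 5 down and 1 up and 11 down. The last stood beside 86.0% of all genes (13.4% higher, 72.6% lower). Col4a1, a basement membrane chain, was called higher at 0.5% O2 in proliferating cells (1.47 ± 0.050 SE, adjusted p = 2.64e-11) and Col7a1, the anchoring fibril collagen, in osteoblast cultures (3.31 ± 0.25 SE, adjusted p = 7.83e-06).

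The 20 listed receptors, partners and proteases of these collagens gave 15 up and 1 down among 20 tested in normoxic chondrocyte, 16 up and 2 down among 20 tested in osteoblast and 14 up and 5 down among 20 tested in smooth muscle cultures against proliferating cells, beside 74.9%, 78.7% and 79.7% of all genes called. At 0.5% O2 the counts were 16 up and 2 down among 20 tested in chondrocyte and 15 up and 4 down among 20 tested in osteoblast cultures, beside 69.5% and 71.3% of all genes. Smooth muscle cultures gave 4 up and 9 down among 17 tested, beside 70.0%, and 3 up and 12 down with library size alone, beside 83.0%. Between oxygen levels the counts were 10 up and 3 down among 17 tested in proliferating, 6 up and 5 down among 19 tested in chondrocyte, 6 up and 3 down among 20 tested in osteoblast and 4 up and 14 down among 20 tested in smooth muscle cultures, beside 65.4%, 22.2%, 54.3% and 75.6% of all genes. With library size alone the counts were 9 up and 4 down, 6 up and 5 down, 5 up and 6 down and 2 up and 18 down, so in osteoblast cultures the balance of directions turns on the scaling. The last of these stood beside 86.0% of all genes (13.4% higher, 72.6% lower). Itga11 and Itga2, alpha subunits of collagen-binding integrins, were called higher at 0.5% O2 in chondrocyte cultures (0.84 ± 0.083 SE, adjusted p = 4.55e-05 and 2.04 ± 0.15 SE, adjusted p = 4.87e-06) and in osteoblast cultures (2.52 ± 0.27 SE, adjusted p = 0.000147 and 2.01 ± 0.36 SE, adjusted p = 0.00134). Itga11 levels were 21.8 ± 9.09 CPM (SD, n = 4) in normoxic and 125 ± 4.54 (SD, n = 3) in hypoxic osteoblast cultures. Antxr1, a cell surface receptor that binds collagen VI, was lower at 0.5% O2 in osteoblast cultures (-0.68 ± 0.094 SE, adjusted p = 0.000309), as was Bmp1, a procollagen C-proteinase (-0.80 ± 0.082 SE, adjusted p = 4.82e-05). Dcn, the proteoglycan decorin that binds collagen VI and fibrils, was lower at 0.5% O2 in chondrocyte cultures (-4.66 ± 0.52 SE, adjusted p = 0.00171). Ctsl, a lysosomal protease able to release endostatin from collagen XVIII, was higher at 0.5% O2 in smooth muscle cultures (1.70 ± 0.086 SE, adjusted p = 1.16e-10) under TMM, and by 0.33 with library size alone (adjusted p = 0.00192).

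For each member the 2 genes with the most similar pattern were found by Pearson correlation of log2(CPM + 0.5) over the 28 libraries, among 11647 genes with a mean of at least 1 CPM. The libraries share groups, depth and scaling, so r is a description. Col6a1 and Col6a2 were each other's nearest gene (r = 0.981), with Lbp second for Col6a1 (r = 0.974) and Crispld2 for Col6a2 (r = 0.979). The nearest to Col6a3 were Shroom1 (r = 0.974) and Ppfibp1 (r = 0.974), and to Col8a1 Qsox2 (r = 0.932) and Dffa (r = 0.926). Col12a1 was followed most closely by Itgb5 (r = 0.991) and Adamts2 (r = 0.988), the latter a procollagen N-proteinase. Col16a1 had Spon2 (r = 0.88) and Col4a5 (r = 0.847), Col23a1 had Rspo2 (r = 0.974) and Ptger1 (r = 0.968), and Col18a1 had Kifc5b (r = 0.952) and Pold1 (r = 0.952), a kinesin with a near-identical copy, whose counts are therefore uncertain, and a DNA polymerase subunit. For Col14a1 and Col13a1 the counts were too few for r to mean a pattern. Between members, Col18a1 ran against Col12a1 (r = -0.821) and Col8a1 was only loosely tied to Col6a1 (r = 0.352).

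The authors' deposited table of fold changes gave values for 67 of the member changes called here. All 67 had the same sign in the authors' deposited table, with a median absolute difference of 0.0124 and a largest of 0.351 on the log2 scale.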

How the data were processed

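Polyadenylated RNA of 28 libraries was sequenced. The deposited count table holds whole-number counts per gene, not normalized by the authors. The submitters' processing notes name HISAT2 2.0.5, StringTie 1.3.3b, featureCounts 1.5.0-p3 and build mm10. Tables of the authors' comparisons give log2 fold changes and p-values per gene, per the file headers. The log2 values were only set beside the fits, the deposited p-values were not used in any result, and 70 further per-library columns in them were not used. Symbols came from GENCODE M21 (99.79% of 54429 identifiers).

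Genes were filtered with filterByExpr (10 counts, 15 in total) and tested on the counts with edgeR 4.0.16 (TMM, robust quasi-likelihood F test, R 4.3.3), 12 pairwise comparisons and 3 interactions, each fitted on its own groups, with Benjamini-Hochberg adjustment over all genes tested. The SE is the log2 fold change divided by the square root of F. CPM use TMM over all 28 libraries, and values per kb the longest coding transcript. Counts of 3 or fewer in a group are given as exact 95% counting ratios. The fits were tested on simulated data with 200 changed genes, for osteoblast comparisons only and with the same spread for every gene. That setting cannot bear on the scaling of the hypoxic smooth muscle libraries or on outlying replicates. Alternatives used library size alone, RLE size factors, DESeq2 1.42.0, limma-voom (limma 3.58.1), no filter, at least 10 counts in every library, all 28 libraries in the fit, a replicate block and leaving out each library. Library size without the 2 mitochondrial ribosomal RNAs, and replicates 1 to 3 only, were chosen after seeing the data. All 10 members were carried through every comparison and tested where counts allowed, and not every value is printed. From each context list at most the 2 called genes of largest change in each direction could be named, and levels replace folds where a group had 3 or fewer counts. Members and lists were chosen with earlier results of these data known. The labels do not say that replicates were separate cultures, so p-values measure only the spread between these libraries, which may be technical. No pair of libraries agreed within sampling noise. Library totals of 19.9 to 64.7 M counts (M, 1e+06) set the precision of low genes such as Col13a1, Col14a1 and Col23a1. Tables and plots were made with Python 3.11.15, pandas 2.3.3 and matplotlib 3.10.9.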

Additional observations from a re-analysis of the deposited data

Results flagged for a closer look

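In the groups of 4, a single library lay far from its 3 companions in 8 of 32 gene and group pairs checked, where chance marks about 1 in 20 groups. All 8 were replicate 4. In normoxic osteoblast cultures its levels were 2050 CPM for Col6a2, 1604 for Col8a1, 6811 for Col12a1, 2.5 for Col14a1 and 38.2 for Col23a1. In normoxic proliferating cells it held 652 CPM of Col6a1 and 36.9 of Col12a1, and in normoxic smooth muscle cultures 16.3 of Col23a1.

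The change from proliferating cells differed between 0.5% and 21% O2 by an interaction test for 19 gene and lineage pairs, given as the log2 change at 0.5% O2 minus that at 21% O2. In chondrocyte cultures all were negative: -1.04 for Col6a1, -1.08 for Col6a2, -1.14 for Col6a3, -1.23 for Col8a1, -2.65 for Col12a1, -0.80 for Col16a1 and -1.34 for Col18a1. In osteoblast cultures the terms were 0.41 for Col6a1, 1.27 for Col6a3 and 0.82 for Col18a1, and -2.90 for Col8a1 and -2.76 for Col12a1. The Col6a1 term was not called in 4 of 14 fits that leave out 1 library, where it ran from 0.32 to 0.51, nor with library size alone (0.29, adjusted p = 0.124). In smooth muscle cultures they were -0.61 for Col6a2, -1.98 for Col6a3, -2.88 for Col8a1, -4.76 for Col12a1, -1.42 for Col16a1, -7.17 for Col23a1 and 2.02 for Col18a1. These are under TMM scaling. With library size alone the median smooth muscle term of all genes moved from -0.0419 to -1.37, the Col6a1 term became -1.41 and was called, and the Col18a1 term was 0.69 (adjusted p = 6.38e-06).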

How the results depend on the processing

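Of the log2 fold changes recomputed under the alternatives, 1940 kept their direction and side of the threshold, 59 lost a call, 33 gained one and 21 changed sign. Of the group levels, 34 were marked as moved and 46 as the same with library size alone, and 10 and 70 with RLE factors. Library size alone gave -0.0381 for Col16a1 in normoxic and -0.0537 in hypoxic osteoblast cultures against proliferating cells, -0.0155 for its osteoblast interaction, -0.0348 for Col8a1 in hypoxic chondrocyte cultures, -0.00187 for Col12a1 between hypoxic chondrocyte and osteoblast cultures, -0.54, -0.70 and -0.98 for Col6a1, Col6a2 and Col18a1 in hypoxic smooth muscle against proliferating cultures, and -0.91 for Col6a1 between oxygen levels in smooth muscle cultures. Without mt-Rnr1 and mt-Rnr2 in the library size, the last 4 were -0.35, -0.51, -0.79 and -0.72. The small Col16a1 change in hypoxic chondrocyte cultures was 0.0067 with RLE factors, 0.00664 with DESeq2 and 0.00471 with all 28 libraries, and -0.33 and called with library size alone (adjusted p = 0.000329). Apart from the scaling itself, the cause of these turns was not tested.

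Leaving out 1 library changed the sign of Col8a1 (-0.0323 to 0.45) and Col16a1 (-0.024 to 0.0496) in hypoxic chondrocyte cultures, of Col12a1 between normoxic chondrocyte and osteoblast cultures (-0.19 to 0.0665) and of the Col23a1 chondrocyte interaction (-3.02 to 0.33). None of these was called with all libraries. The count of all genes called between oxygen levels in chondrocyte cultures was 3157 and ran from 2091 (without hypoxic replicate 3) to 3359. The counts of members called stayed within 1.5 times their value under every alternative run.

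Replicate numbers did not pair the libraries: correlations of same-numbered residuals ran from -0.26 to 0.105, and 18 of 80 correlated best with their own number. With the replicate block, members called were 7, 7, 8, 5, 8, 7, 7, 3, 8 and 7 in the 10 comparisons of a lineage or an oxygen level. The block changed 4 calls: Col14a1 between normoxic chondrocyte and osteoblast cultures (-1.81), Col23a1 between the hypoxic ones (-1.40) and the Col23a1 interactions for osteoblast (-7.12) and smooth muscle (-7.16). Depth limits Col13a1, Col14a1 and Col23a1 in proliferating cells, where 1 count or none was seen.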
